A study of Mus musculus with 16 samples.

Results

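Potassium channel genes were followed across normal mouse brain and 3 kinds of genetically induced brain tumour. Every gene whose symbol starts with Kcn was taken, which gave 92 of the 19936 genes measured. Of these, 89 code for proteins of 21 subfamilies and 3 are non-coding RNAs that lie beside a channel gene (Kcnd3os, Kcnmb4os1 and Kcnmb4os2). The name family is wider than the channels, since it also holds proteins that bind or regulate them.

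Total RNA from 16 samples was measured on Affymetrix arrays, 4 for each of 4 groups. Normal brain, wild type for Pdgfb, Trp53 and Rbpj, was the control. For PDGF-p53 tumours, a retrovirus given to mice with floxed p53 alleles delivered both PDGF-B and Cre recombinase, so that the growth factor was over-expressed and p53 was lost. PDGF-p53-RBPJ tumours were made with that virus in mice that also carried floxed RBPjk alleles. RBPJ is the DNA-binding protein through which Notch receptors act on genes. In p53-RBPJ tumours no PDGF was added, and both floxed genes were deleted by a Hes5::CreERT2 transgene in cells that express Hes5. All 3 tumour groups thus lacked p53, and the p53-RBPJ tumours differed from the others in the cells targeted as well as in PDGF. Tumour tissue was dissected by its green fluorescent reporter when the mice became ill. Ages are not given in the labels. Arrays carry a replicate number, but nothing says that each came from its own animal, and p-values then reflect only how these samples spread, which may be technical.

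Potassium channels let potassium leave or enter the cell along its gradient and so set the resting potential and end the action potential. Neurons carry most of the known kinds: voltage-gated channels shape the spike and its frequency, calcium-activated channels produce the pause after a spike, and G-protein-gated inward rectifiers mediate slow inhibition. Astrocytes use inward rectifiers to take up potassium released by neurons, and tandem-pore-domain channels give many cell types a background leak. Pore-forming subunits assemble as groups of subunits and often need auxiliary proteins for their gating or their transport to the membrane.

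Values are log2 expression on the scale of the deposited table, and a difference of 1 is a change by a factor of 2. Where 3 values or counts follow each other without names, they belong to PDGF-p53 first, PDGF-p53-RBPJ next and p53-RBPJ tumours last. A gene was called higher or lower when limma's adjusted p was under 0.05 over all 19936 genes. Levels of different genes come from different probes and are not compared with each other. Arrays of the same group had correlations of 0.967 to 0.984 across probe sets. Rbpj averaged 8.01 in normal brain, 8.32 in PDGF-p53, 7.73 in PDGF-p53-RBPJ tumours, then 7.78 in p53-RBPJ tumours, and Pdgfb averaged 5.89, 6.03, 6.02 and 5.53. The probes' position relative to the deleted part of Rbpj and to the virus's PDGF-B is not given, so these values do not check the labels. Markers of neurons (10 genes, such as Snap25 and Syt1) had mean levels of 10.47 to 10.62 in the normal arrays, 7.25 to 8.78 in PDGF-p53, 7.08 to 8.51 in PDGF-p53-RBPJ tumours, then 6.42 to 7.80 in p53-RBPJ tumours, and all 10 fell in each tumour group. Among astrocyte markers 7 of 8 fell in each tumour group, and all 7 markers of oligodendrocyte precursors rose. In bulk tissue, fewer cells of a type and less RNA per cell cannot be told apart.

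In each tumour group more potassium channel genes were called lower than higher against normal brain, and the lower share exceeded that of all genes. In PDGF-p53 tumours 40 of the 92 were lower and 5 higher, where 17.6% of all genes were called lower and 13.6% higher. In PDGF-p53-RBPJ tumours 43 were lower and 5 higher, against 17.9% and 15.7% of all genes. In p53-RBPJ tumours 44 were lower and 6 higher, against 20.4% and 16.4%. The share of members called lower was thus 43.5%, 46.7% and 47.8%, and the share called higher 5.4%, 5.4% and 6.5%. The median difference of the 92 genes was -0.29, -0.34 and -0.37, beside -0.04, -0.03 and -0.02 for all genes. The 3 comparisons share the 4 control arrays and are therefore not independent of each other. Among called members, 27, 28 and 30 were lower by a factor of 2 or more, and 2, 1 and 1 were higher by that factor. The same count over all genes was not made, so these counts have no share to stand beside.

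The lower counts varied little when single arrays were left out (36 to 41, 40 to 45 and 42 to 46). The counts of higher members were less stable. For PDGF-p53 tumours the 5 became 3 without control array 2 or 4, or PDGF-p53 array 3 or 4. For PDGF-p53-RBPJ tumours the 5 became 1 without PDGF-p53-RBPJ array 3, 2 without control array 3, and 3 without control array 1, 2 or 4 or PDGF-p53-RBPJ array 1, 2 or 4.

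**Figure D1:**
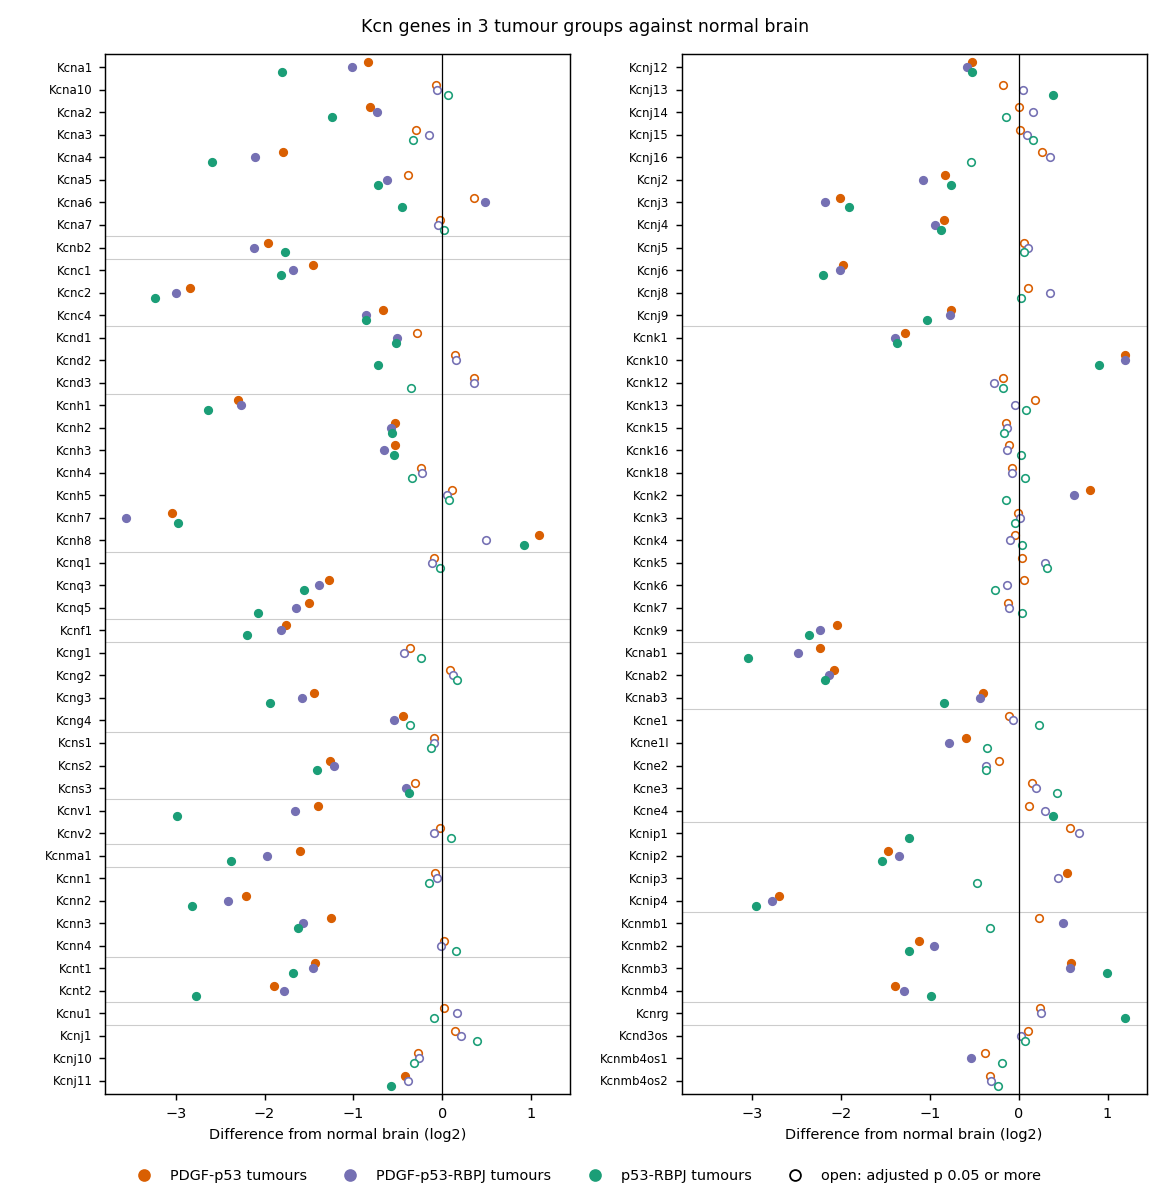
Difference of each of the 92 Kcn genes from normal brain on the log2 scale, with 1 row per gene ordered by role and a grey line between subfamilies. Each gene has a point for each tumour group (4 arrays against 4), filled where limma's adjusted p was under 0.05. Most filled points lie left of 0, down to -3.55 for Kcnh7, and the few on the right reach 1.20 for Kcnk10 and Kcnrg.

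**Figure D2:**
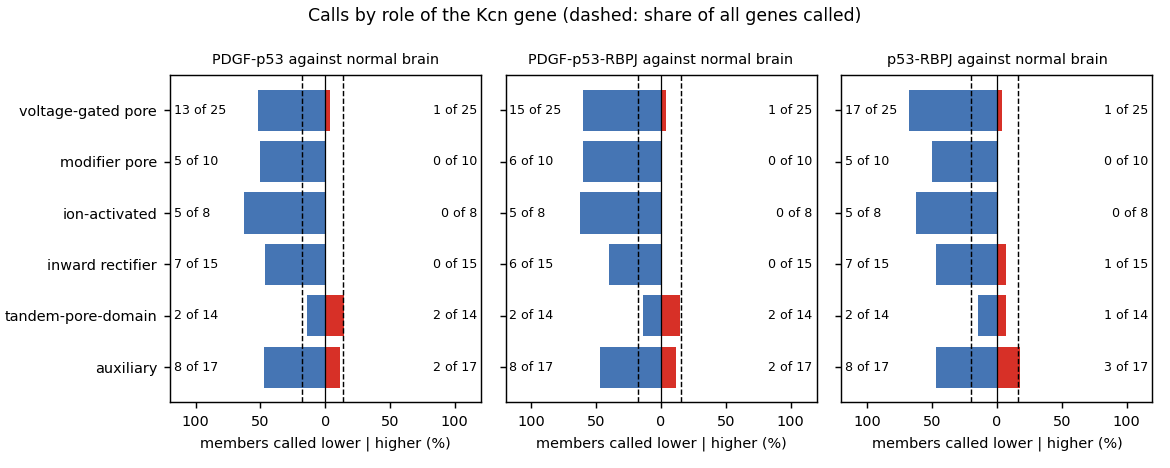
Share of Kcn genes called lower (blue, leftward) or higher (red, rightward) than normal brain in each tumour group, by role of the gene, in percent of the members of that role. Numbers at the margins give the counts, and dashed lines mark the share of all 19936 genes called, such as 17.6% lower and 13.6% higher in PDGF-p53 tumours. The tandem-pore-domain genes had 2 of 14 lower in each group, and the voltage-gated pores 13, 15 and 17 of 25. The 3 non-coding RNAs are left out.

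The plot of differences by gene shows all 92 members, and the bars by role show how the calls were spread. Of the 92 genes, 35 were called in no comparison, and 24 of these 35 were dim, meaning that their mean lay below the median of all values (6.01) in every group. In all, 33 of the 92 members were dim and 59 were not. Of all 19936 genes, 12242 were not dim, a share close to that of the members. Of the dim members, 5, 8 and 7 were called against control in the 3 tumour groups. Over all genes, those called in no comparison and those both dim and called were not counted. The 35 members and the 5, 8 and 7 therefore have no share to stand beside. The members called in no comparison that were not dim were Kcna3, Kcng1, Kcnh5, Kcnj8, Kcnj10, Kcnj14, Kcnj16, Kcnk4, Kcnk6, Kcnk13 and the RNA Kcnd3os. A gene near the detection range of the array can differ more than its values show.

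Voltage-gated pore genes (Kcna, Kcnb, Kcnc, Kcnd, Kcnh and Kcnq; 25 members) included the most strongly lowered genes. In the 3 tumour groups 13, 15 and 17 of the 25 were lower and 1 was higher in each. Their median difference was -0.53, -0.63 and -0.72. The shares of all genes were 17.6%, 17.9% and 20.4% lower and 13.6%, 15.7% and 16.4% higher.

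Kcnc2 codes for a fast delayed rectifier of the Shaw family, which lets interneurons fire at high rates. It measured 8.38, 8.33, 8.56 and 8.53 in normal brain and 5.18, 5.32, 6.51 and 5.42 in PDGF-p53 tumours. It measured 4.91, 5.17, 6.05 and 5.70 in PDGF-p53-RBPJ tumours, then 4.99, 4.88, 5.73 and 5.29 in p53-RBPJ tumours. Every tumour array lay far below every normal array, and the third array of each tumour group was its highest. The difference was -2.84 ± 0.27 (SE), -2.99 ± 0.27 and -3.23 ± 0.27, or 7.17-fold, 7.97-fold and 9.37-fold lower (adjusted p = 5.35e-07, 2.57e-07 and 6.47e-08). Its relative Kcnc1 fell, with differences of -1.46, -1.68 and -1.81, and Kcnc4, named to complete the subfamily, with differences of -0.66, -0.86 and -0.85.

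Kcnh7, a channel of the ether-a-go-go related family, had the largest fall of the members in both tumour types with PDGF. Normal arrays measured 8.84, 8.77, 8.86 and 8.65, and those of PDGF-p53 tumours 5.75, 4.91, 7.16 and 5.13. Arrays of PDGF-p53-RBPJ tumours measured 5.10, 4.94, 5.97 and 4.89, and p53-RBPJ arrays 5.01, 5.57, 6.73 and 5.90. The normal values were tight and the tumour values wide, with the highest tumour array at 7.16 still below the lowest normal array. Kcnh7 was lower, with differences of -3.04, -3.55 and -2.98, an 8.22-fold, 11.8-fold and 7.86-fold difference (adjusted p = 1.56e-05, 2.45e-06 and 1.21e-05). Kcnh1, a family member often studied in tumours, was lower, with differences of -2.30, -2.26 and -2.64 with all tumour arrays at or below 6.10 and all normal arrays at or above 7.57. Kcnh5, from the same family as Kcnh1, was not called in any comparison.

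Kcnh8 went the other way. This ether-a-go-go-like channel gene measured 5.81 to 5.96 in normal brain, 6.65 to 7.36 in PDGF-p53, 5.84 to 6.69 in PDGF-p53-RBPJ tumours, then 6.31 to 7.37 in p53-RBPJ tumours. It rose in PDGF-p53 tumours by 1.09 ± 0.25 (adjusted p = 0.00211) and in p53-RBPJ tumours by 0.92 ± 0.25 (adjusted p = 0.00594). In PDGF-p53-RBPJ tumours the difference was 0.49 (95% interval -0.03 to 1.01, adjusted p = 0.144), and 1 array, PDGF-p53-RBPJ array 4, lay among the normal ones. Without that array the difference was called, at 0.67. Another probe set of this gene, not used for the test, averaged 5.36 in normal brain and 6.83, 6.14 and 6.61 in the tumour groups.

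Kcna genes code for Shaker-type channels of axons and their terminals. Of 8 members, 3, 4 and 5 were lower in the 3 tumour groups, beside 17.6%, 17.9% and 20.4% of all genes. Kcna4, an inactivating subunit of axons, was lower, with differences of -1.80, -2.10 and -2.60. Kcna1, whose loss causes episodic ataxia, was lower, with differences of -0.83, -1.02 and -1.81, and Kcna2, its usual partner, with differences of -0.82, -0.73 and -1.24. The calls of Kcna2 were lost in PDGF-p53 tumours without control array 4 or PDGF-p53 array 1 or 4, and in PDGF-p53-RBPJ tumours without control array 2, 3 or 4 or PDGF-p53-RBPJ array 1 or 3. Kcnb2, a delayed rectifier of neuronal cell bodies, was lower, with differences of -1.96, -2.12 and -1.77. Kcnq3 and Kcnq5 form the M-current, which restrains repetitive firing. Kcnq3 fell, with differences of -1.28, -1.38 and -1.56 and Kcnq5 with differences of -1.50, -1.65 and -2.08, with no overlap between tumour and normal arrays, while Kcnq1, best known in heart and epithelia, was dim and not called.

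**Figure D3:**
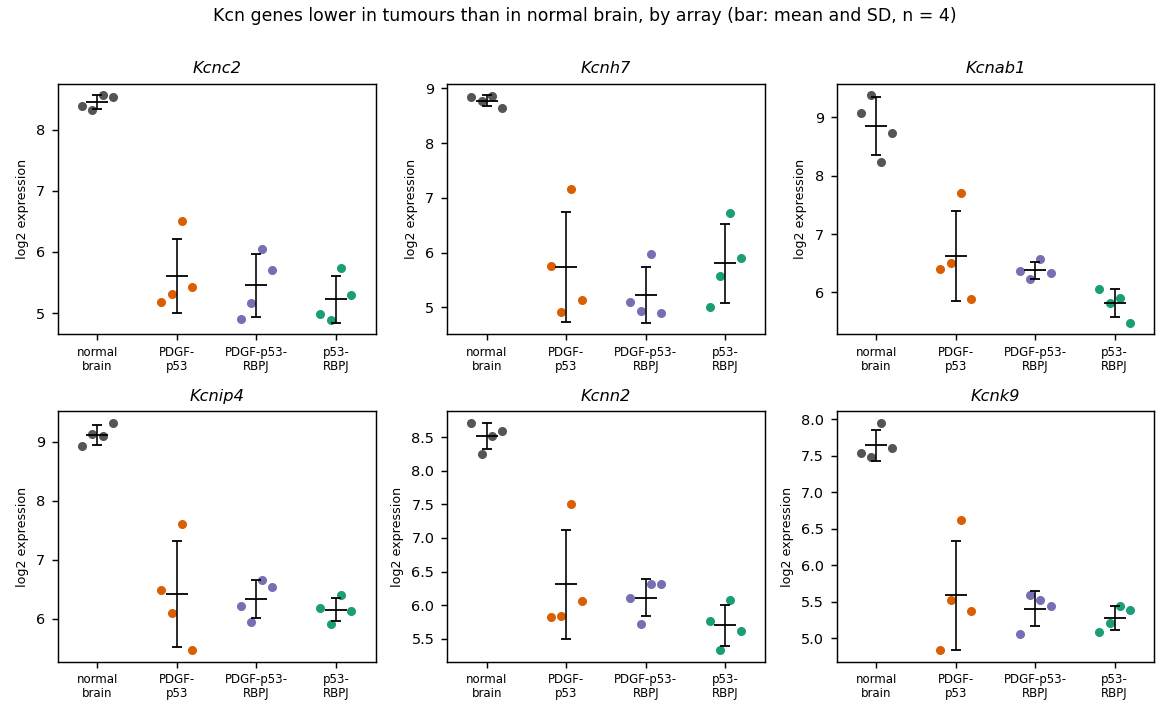
Log2 expression of 6 Kcn genes in each of the 16 arrays, with 4 points per group and a black bar for the mean and SD. In every panel all 4 normal arrays lie above all 12 tumour arrays, and PDGF-p53 array 3 is the highest of its group, as for Kcnc2 at 6.51 and Kcnn2 at 7.51.

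Modifier pore genes (Kcnf, Kcng, Kcns and Kcnv; 10 members) code for silent subunits that make no channel alone but change those of the Kcnb family when joined to them. In the 3 tumour groups 5, 6 and 5 were lower and none was higher. For all genes the shares were 17.6%, 17.9% and 20.4% lower and 13.6%, 15.7% and 16.4% higher. Kcnf1 was lower, with differences of -1.76, -1.81 and -2.19, Kcng3 with differences of -1.44, -1.58 and -1.94, and Kcns2 with differences of -1.27, -1.22 and -1.41. Kcnv1 was lower, with differences of -1.40 ± 0.35, -1.65 ± 0.35 and -2.99 ± 0.35 (adjusted p = 0.00525, 0.00132 and 2.75e-06).

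Channels gated by calcium or sodium (Kcnma, Kcnn, Kcnt and Kcnu; 8 members) had 5 members lower and none higher in each tumour group, with median differences of -1.34, -1.51 and -1.65. The 5 were Kcnma1, Kcnn2, Kcnn3, Kcnt1 and Kcnt2, of which Kcnn3 and Kcnt1 were named after their values were seen. Among all genes 17.6%, 17.9% and 20.4% were lower and 13.6%, 15.7% and 16.4% higher. Kcnma1, the pore of the large-conductance BK channel, was lower, with differences of -1.60, -1.97 and -2.38. Glioma cells are known for BK currents, and in these tumours the gene measured 6.66 to 8.40 against 9.03 to 9.38 in normal brain. A further Kcnma1 probe set, not used for the test, averaged 3.84 in normal brain and 4.10, 3.63 and 3.58 in the tumour groups. It was dim in every group and did not show that fall, and a dim probe set can miss a change. Kcnn2 codes for the small-conductance channel of the pause after a spike. Its values were 8.71, 8.25, 8.52 and 8.59 in normal brain and 5.83, 5.84, 7.51 and 6.06 in PDGF-p53 tumours. They were 6.11, 5.72, 6.31 and 6.31 in PDGF-p53-RBPJ tumours, then 5.76, 5.33, 6.08 and 5.62 in p53-RBPJ tumours. No tumour array reached the normal range, and PDGF-p53 array 3 stood apart from the others of its group. The differences were -2.21, -2.41 and -2.82, or 4.62-fold, 5.30-fold and 7.07-fold (adjusted p = 1.16e-05, 3.82e-06 and 4.42e-07). Kcnt2, a sodium-activated channel, was lower, with differences of -1.89, -1.79 and -2.77. Kcnn4, the intermediate-conductance channel described in glioma cells and microglia, was dim and differed from control by 0.03, -0.01 and 0.16. Its intervals were -0.28 to 0.33, -0.32 to 0.29 and -0.15 to 0.46, and a dim probe set can miss a change.

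Inward rectifiers (Kcnj; 15 members) had 7, 6 and 7 members lower in the 3 tumour groups, and 1 higher in p53-RBPJ tumours. Shares of all genes were 17.6%, 17.9% and 20.4% lower and 13.6%, 15.7% and 16.4% higher. Of the inward rectifiers opened by G proteins, Kcnj3, Kcnj6 and Kcnj9 were lower in each tumour group, while Kcnj5 was dim and called in no comparison. Kcnj6 measured 7.15 to 7.42 in normal brain and at most 5.94 in any tumour array, and was lower, with differences of -1.98, -2.02 and -2.20 (adjusted p = 4.59e-07, 3.02e-07 and 6.69e-08). Kcnj3 was lower, with differences of -2.01, -2.18 and -1.91. Kcnj9, named to complete these subunits of brain, was lower, with differences of -0.76, -0.77 and -1.04. Kcnj2, a strong rectifier that holds the resting potential, was lower, with differences of -0.82, -1.07 and -0.76. Without control array 2 or p53-RBPJ array 2, the p53-RBPJ call was lost. The gene was dim.

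The inward rectifiers of astrocytes, Kcnj10 and Kcnj16, were not called in the fit of all arrays. Kcnj10 takes up potassium at astrocyte endfeet. It measured 9.04, 8.90, 8.38 and 8.95 in normal brain and 8.38, 8.47, 8.79 and 8.52 in PDGF-p53 tumours. It measured 8.35, 8.21, 8.55 and 9.11 in PDGF-p53-RBPJ tumours, then 8.22, 9.02, 8.28 and 8.50 in p53-RBPJ tumours. Tumour and normal values overlapped, with differences of -0.28 (95% interval -0.71 to 0.16), -0.26 (-0.70 to 0.17) and -0.31 (-0.75 to 0.12), none called. In the same arrays 7 of the 8 astrocyte markers were called lower, with a median difference of -1.37, -1.69 and -2.07. All 7 markers of oligodendrocyte precursors were called higher, with medians of 2.30, 2.22 and 1.74. Which cells of the tumours carry Kcnj10 was not tested.

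Kcnj16, which joins Kcnj10 in astrocytes, differed from control by 0.27, 0.35 and -0.53, none called (adjusted p = 0.533, 0.381 and 0.154). Its p53-RBPJ arrays measured 8.67, 7.38, 7.44 and 7.53, so that the group's low mean came from 3 arrays while array 1 lay above all normal arrays. Without that array Kcnj16 was called lower than control (-0.84, adjusted p = 0.0105), than PDGF-p53-RBPJ tumours (-1.19, adjusted p = 0.0127) and than PDGF-p53 tumours (-1.11, adjusted p = 0.0128). Without PDGF-p53 array 1 it was called lower than PDGF-p53 tumours (-1.02, adjusted p = 0.0343). Kcnj8, the potassium channel that ATP closes in pericytes, differed by 0.10, 0.36 and 0.02, not called. Abcc9, its partner subunit, was called higher in PDGF-p53-RBPJ tumours by 0.76. Kcnj13, known from choroid plexus and retinal epithelium, was the 1 member of the group called higher, by 0.39 ± 0.15 in p53-RBPJ tumours (adjusted p = 0.0494). That call was lost in 10 of 16 fits with an array left out, namely control array 1, 2 or 3, PDGF-p53 array 1 or 3, PDGF-p53-RBPJ array 1 or 2, and p53-RBPJ array 1, 2 or 4. Of 5 choroid plexus markers measured, 3 were lower and none higher in these tumours. Kcnj13 lies within Gigyf2, and Gigyf2 was itself higher there by 0.29 (adjusted p = 0.0328); the part of shared signal was not tested.

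Tandem-pore-domain genes (Kcnk; 14 members) carry background leak currents and had the smallest share of calls against control among the roles of coding genes. In each tumour group 2 were lower (Kcnk1 and Kcnk9), while 2, 2 and 1 were higher and 10, 10 and 11 not called. These counts lie near the shares of all genes, 17.6%, 17.9% and 20.4% lower and 13.6%, 15.7% and 16.4% higher. Kcnk3, Kcnk5, Kcnk7, Kcnk12, Kcnk15, Kcnk16 and Kcnk18 were dim, and dim probe sets can miss a change. Their median difference was -0.06, -0.11 and -0.01. Kcnk9, an acid-sensitive leak channel of cerebellar neurons, was lower, with differences of -2.04, -2.23 and -2.36. Kcnk1, found in neurons and astrocytes, was lower, with differences of -1.28, -1.39 and -1.37.

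Kcnk10 and Kcnk2 code for the stretch- and lipid-sensitive TREK channels and were the 2 higher members. Kcnk10 measured 5.83, 5.92, 6.19 and 6.85 in normal brain and 7.23, 7.46, 7.37 and 7.55 in PDGF-p53 tumours. It measured 7.28, 7.32, 7.50 and 7.48 in PDGF-p53-RBPJ tumours, then 7.09, 7.11, 6.69 and 7.54 in p53-RBPJ tumours. All tumour arrays but p53-RBPJ array 3 exceeded the highest normal array. The rise was 1.20 ± 0.20, 1.20 ± 0.20 and 0.91 ± 0.20 (adjusted p = 0.000128, 0.000115 and 0.0012), and it was called whichever array was left out.

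Kcnk2 measured 7.08 to 7.80 in normal brain, 7.83 to 8.66 in PDGF-p53, 7.83 to 8.19 in PDGF-p53-RBPJ tumours, then 6.81 to 7.78 in p53-RBPJ tumours. It rose in both tumour types with PDGF, by 0.81 ± 0.22 (adjusted p = 0.00758) and 0.62 ± 0.22 (adjusted p = 0.0324). The latter call was lost without control array 3 or 4, or PDGF-p53-RBPJ array 2, 3 or 4. In p53-RBPJ tumours it differed from control by -0.14 (95% interval -0.60 to 0.31). Set against each other, p53-RBPJ tumours were lower than PDGF-p53 tumours with a difference of -0.95 (adjusted p = 0.0158), a call lost without PDGF-p53 array 2 or p53-RBPJ array 3. Against PDGF-p53-RBPJ tumours the difference of -0.77 was not called (adjusted p = 0.0613), but it was without PDGF-p53 array 2 or p53-RBPJ array 4. Kcnk13, a leak channel of microglia, differed from control by 0.19, -0.04 and 0.09, none called, while 5 of 5 microglia markers were lower in p53-RBPJ tumours.

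**Figure D4:**
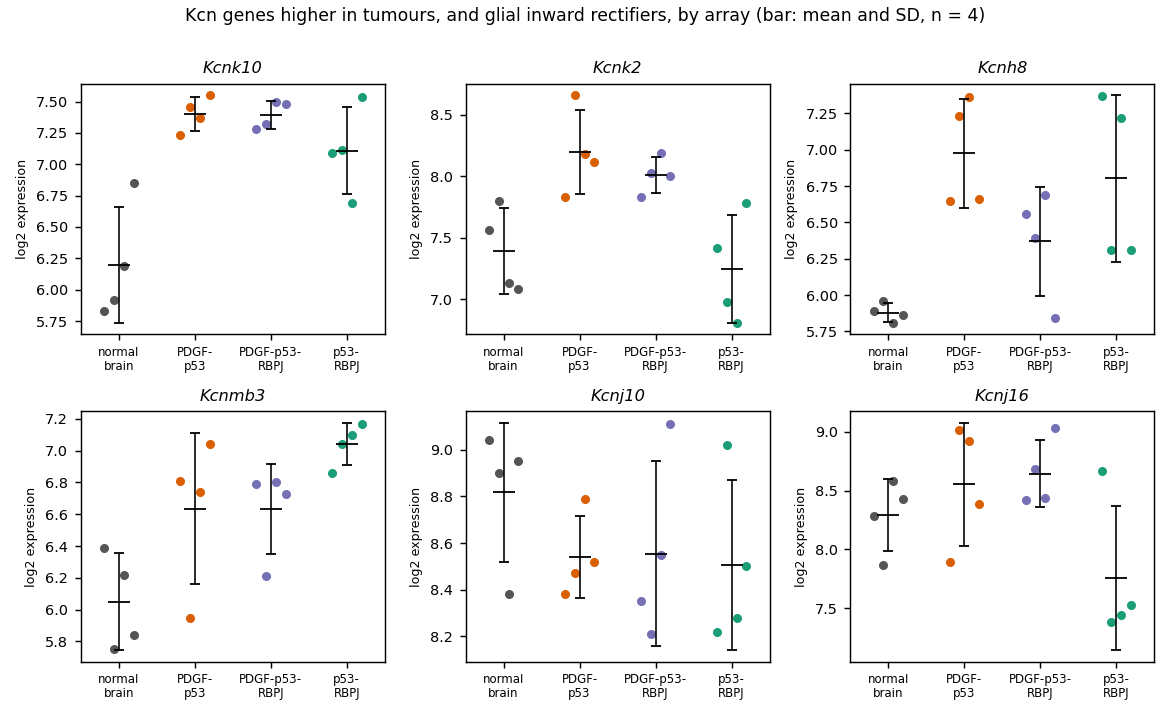
Log2 expression of 4 Kcn genes with a rise in some tumour group and of the astrocyte channels Kcnj10 and Kcnj16, in each of the 16 arrays, with a black bar for the mean and SD of 4 arrays. Kcnk10 lies between 6.69 and 7.55 in tumours and 5.83 and 6.85 in normal brain, while the tumour and normal values of Kcnj10 overlap.

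Auxiliary and regulatory genes (Kcnab, Kcne, Kcnip, Kcnmb and Kcnrg; 17 members) had 8 members lower in each tumour group and 2, 2 and 3 higher. The counts of higher members lie near the shares of all genes, 13.6%, 15.7% and 16.4%. The shares of all genes called lower were 17.6%, 17.9% and 20.4%. All 3 Kcnab genes, the cytoplasmic beta subunits of Kcna channels, were lower in each group. Kcnab1 measured 8.23 to 9.38 in normal brain and at most 7.70 in any tumour array, and fell, with differences of -2.23, -2.48 and -3.04. Kcnab2 fell, with differences of -2.08, -2.14 and -2.19 (adjusted p = 1.47e-07, 9.05e-08 and 3.87e-08), and Kcnab3 with differences of -0.40, -0.44 and -0.84. Of the Kcnip genes, calcium sensors that bind Kcnd pores, Kcnip4 fell, with differences of -2.70, -2.78 and -2.96 and Kcnip2, named to complete the subfamily, with differences of -1.47, -1.34 and -1.54. Kcnip1 and Kcnip3 behaved differently and are described with their pore partners.

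Kcnmb genes code for the beta subunits of the BK channel. Kcnmb4, the subunit of neurons, fell, with differences of -1.39, -1.29 and -0.99, and Kcnmb2, which inactivates the channel and was named to complete the subfamily, with differences of -1.12, -0.95 and -1.24. Kcnmb3 went up instead. It measured 6.39, 5.75, 6.22 and 5.84 in normal brain and 6.81, 5.95, 6.74 and 7.04 in PDGF-p53 tumours. It measured 6.79, 6.21, 6.80 and 6.73 in PDGF-p53-RBPJ tumours, then 6.86, 7.04, 7.10 and 7.17 in p53-RBPJ tumours. Array 2 of each tumour group with PDGF lay in the normal range, and no p53-RBPJ array did. The rise was 0.59, 0.58 and 0.99 ± 0.21 (adjusted p = 0.0387, 0.0377 and 0.000869). It was no longer called in PDGF-p53 tumours without control array 2 or 4 or PDGF-p53 array 1, 3 or 4, nor in PDGF-p53-RBPJ tumours without control array 2 or 4 or PDGF-p53-RBPJ array 1, 3 or 4. Kcnmb3 overlaps Pik3ca, which differed by 0.30, 0.33 and 0.30 (adjusted p = 0.0904, 0.0556 and 0.0806).

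Kcne genes code for small membrane proteins that pair with Kcnq and other pores, and Kcne1, Kcne2 and Kcne3 were dim and called in no comparison. Kcne1l was lower, with a difference of -0.59 in PDGF-p53 and -0.78 in PDGF-p53-RBPJ tumours. The PDGF-p53 call was lost without control array 2 or 4 or PDGF-p53 array 1 or 2. Kcne4 was higher by 0.38 in p53-RBPJ tumours (adjusted p = 0.0328), a dim gene whose call was lost without control array 2 or p53-RBPJ array 1 or 3. Of the non-coding RNAs, Kcnmb4os1 was lower, with a difference of -0.53 in PDGF-p53-RBPJ tumours (adjusted p = 0.0426). That call was lost without control array 1, 3 or 4, PDGF-p53 array 1, or PDGF-p53-RBPJ array 1 or 2. It overlaps Kcnmb4, and whether its probes see only its own strand was not tested.

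Other settings than leaving out an array also ended some calls against control. Centring each array on 9 housekeeping genes ended those of Kcna2 and Kcnmb4os1 in PDGF-p53-RBPJ tumours, of Kcnmb3 in PDGF-p53 tumours, and of Kcna6, Kcnd2 and Kcnj2 in p53-RBPJ tumours. A term for the sex pattern of Xist and Kdm5d ended those of Kcnip3 in PDGF-p53 tumours, of Kcnk2 and Kcnmb4os1 in PDGF-p53-RBPJ tumours, and of Kcna6, Kcne4, Kcnj2 and Kcnj13 in p53-RBPJ tumours. A fit of only the 2 groups compared ended those of Kcne1l and Kcnmb3 in PDGF-p53 tumours and of Kcna6, Kcnd2, Kcne4 and Kcnj13 in p53-RBPJ tumours.

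In PDGF-p53 tumours most lowered members were least low in array 3, and no array of the other groups stood out as much. The same count over all lowered genes was not made. Of the 40 members lower in PDGF-p53 tumours, 31 had the highest value of that group in PDGF-p53 array 3, where the neuron markers averaged 8.78 against 7.25 to 7.64 in the others. Of the 43 in PDGF-p53-RBPJ tumours, 19 were highest in array 3, where neuron markers averaged 8.51 against 7.08 to 7.71. Of the 44 in p53-RBPJ tumours, 16 were highest in array 3, at 7.80, and 15 in array 1, at 6.62. Astrocyte markers were also highest in array 3 of each tumour group, at 9.10 against 7.57 to 8.20 in PDGF-p53, 8.21 against 7.78 to 8.18 in PDGF-p53-RBPJ and 7.72 against 7.16 to 7.64 in p53-RBPJ tumours. Oligodendrocyte markers ran from 6.36 to 8.69 in PDGF-p53 tumours and were highest in array 3. Macrophage and endothelium markers were lowest of that group in array 3, at 6.43 and 6.40. In the other tumour groups array 3 had the highest macrophage markers, at 7.92 and 9.06, and endothelium markers of 7.16 and 6.99. The part of any of these cell types in the lower channel genes was not tested. Without PDGF-p53 array 3 the count of lower members was 41, and the difference of Kcnc2 from control ranged from -3.14 to -2.70 over all fits with 1 array left out.

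Between the tumours with PDGF, loss of RBPJ came with no called change in potassium channel genes. Against PDGF-p53 tumours, PDGF-p53-RBPJ tumours had 0 of 92 members higher and 0 lower, where 0.015% of all genes were higher and 0.00502% lower by limma. Without adjustment, 1 member and 1032 of all genes had p under 0.05. The differences of the members ran from -0.60 for Kcnh8 to 0.27 for Kcnmb1, with a lowest adjusted p of 0.885. The interval for Kcnh8 was -1.12 to -0.09, and that for Kcnk10, the most raised leak channel, -0.42 to 0.41.

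More members were called between p53-RBPJ tumours and each of the others. Against PDGF-p53-RBPJ tumours 8 members were lower and 1 higher, where 2.63% of all genes were lower and 0.637% higher. Against PDGF-p53 tumours 10 members were lower and 2 higher, against 3.61% and 1.93%. The median difference of the 92 genes was -0.05 and -0.09, beside -0.01 and 0.01 for all genes. The 8 were Kcna1, Kcna6, Kcnd2, Kcnd3, Kcnip1, Kcnip3, Kcnmb1 and Kcnv1. The 10 were these and Kcnab3 and Kcnk2, but both comparisons use the same p53-RBPJ arrays and are not independent.

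Of those lower members, 4 are Kcnd and Kcnip genes, whose proteins form the A-type current, a grouping made after their values were seen. The other members of both subfamilies, Kcnd1, Kcnip2 and Kcnip4, were not called between these tumours (adjusted p = 0.982, 0.633 and 0.837 against PDGF-p53-RBPJ tumours). Nor were their partners Dpp6 and Dpp10 (adjusted p = 0.208 and 0.981). Kcnd2 and Kcnd3 code for the Shal pores of that current, which open below threshold and delay the spike, and Kcnip1 and Kcnip3 for calcium sensors bound to them. Kcnip3 is also known as a repressor of transcription. The promoters of the 4 genes, which the next paragraphs describe, are shown as the 250 bases before a start site (RefSeq, build GRCm38.p6). Capitals mark TGGGAA, the core of the sequence RBPJ binds, searched on both strands. RBPJ was deleted in p53-RBPJ and PDGF-p53-RBPJ tumours alike, so the motif does not bear on the difference between them.
Kcnd2, chr6:21215096-21215345, plus strand: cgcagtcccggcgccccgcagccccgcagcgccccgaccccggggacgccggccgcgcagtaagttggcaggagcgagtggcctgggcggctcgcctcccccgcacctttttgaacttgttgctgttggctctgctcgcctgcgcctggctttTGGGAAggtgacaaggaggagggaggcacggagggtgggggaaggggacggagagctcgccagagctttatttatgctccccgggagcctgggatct
Kcnd3, chr3:105451640-105451889, plus strand: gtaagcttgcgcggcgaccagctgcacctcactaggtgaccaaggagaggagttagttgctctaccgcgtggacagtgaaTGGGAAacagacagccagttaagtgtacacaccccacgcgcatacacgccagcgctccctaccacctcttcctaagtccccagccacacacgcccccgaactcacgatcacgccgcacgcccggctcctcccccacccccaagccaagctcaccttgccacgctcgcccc
Kcnip1, chr11:33993194-33993443, minus strand: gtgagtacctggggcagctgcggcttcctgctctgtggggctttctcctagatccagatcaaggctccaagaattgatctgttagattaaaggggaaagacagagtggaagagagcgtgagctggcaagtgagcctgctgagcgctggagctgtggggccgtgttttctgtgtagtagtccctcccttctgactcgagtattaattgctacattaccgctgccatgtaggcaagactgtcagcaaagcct
Kcnip3, chr2:127522095-127522344, minus strand: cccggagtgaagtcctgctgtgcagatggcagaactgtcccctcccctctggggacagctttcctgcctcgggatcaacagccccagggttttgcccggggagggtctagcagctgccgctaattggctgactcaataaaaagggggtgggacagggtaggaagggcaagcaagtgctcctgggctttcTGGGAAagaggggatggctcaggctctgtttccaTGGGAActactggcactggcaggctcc

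The 6 letters occurred 1 time in the windows of Kcnd2 and Kcnd3, 2 times in that of Kcnip3 and 0 times in that of Kcnip1. Kcnip1 and Kcnip3 have 3 start sites each in the table, and the windows shown belong to the start farthest upstream. Over all 95 windows of the 70 Kcn genes that the table holds, 21.1% had the motif, beside 20.9% of 19177 windows of measured genes. The longer GTGGGAA, which contains it, occurred in 4.2% and 5.3%. A match describes letters and is no evidence of binding. The median GC content was 59.4% in Kcn windows and 56.6% in all.

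Kcnip1 had the largest difference. It measured 8.13, 8.13, 8.01 and 8.38 in normal brain and 8.22, 9.64, 8.26 and 8.84 in PDGF-p53 tumours. It measured 9.16, 8.68, 9.05 and 8.46 in PDGF-p53-RBPJ tumours, then 7.69, 6.81, 6.80 and 6.40 in p53-RBPJ tumours. All p53-RBPJ arrays lay below all others. Against PDGF-p53-RBPJ tumours it was lower, with a difference of -1.91 ± 0.29 (3.76-fold, adjusted p = 0.00213), and against PDGF-p53 tumours with a difference of -1.82 ± 0.29 (3.52-fold, adjusted p = 0.00175). Normal brain exceeded p53-RBPJ tumours by 2.35-fold (-1.24 ± 0.29, adjusted p = 0.00208). All 3 calls held in each of 25 alternative analyses, with adjusted p up to 0.036 and 0.0373 between tumours.

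Kcnd2 measured 9.69, 10.15, 9.38 and 9.94 in normal brain and 9.88, 10.02, 9.92 and 9.93 in PDGF-p53 tumours. It measured 9.82, 10.08, 9.94 and 9.96 in PDGF-p53-RBPJ tumours, then 9.74, 9.12, 9.06 and 8.35 in p53-RBPJ tumours. In the tumours with PDGF no difference from normal brain was called, at 0.15 (95% interval -0.30 to 0.60) and 0.16 (-0.29 to 0.61), while 3 of the 4 p53-RBPJ arrays lay below every other array. Against PDGF-p53-RBPJ tumours the difference was -0.88 ± 0.21 (adjusted p = 0.031), against PDGF-p53 tumours -0.87 ± 0.21 (adjusted p = 0.0236) and against control -0.72 ± 0.21 (adjusted p = 0.0122). The call against PDGF-p53-RBPJ tumours was lost without array 1, 2 or 3 of that group or p53-RBPJ array 2, 3 or 4. That against PDGF-p53 tumours was lost without PDGF-p53 array 2 or 3 or p53-RBPJ array 3 or 4.

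Kcnd3 measured 7.54 to 7.83 in normal brain, 7.67 to 8.26 in PDGF-p53, 7.70 to 8.23 in PDGF-p53-RBPJ tumours, then 6.96 to 7.70 in p53-RBPJ tumours. It was lower in p53-RBPJ tumours with a difference of -0.70 ± 0.18 (adjusted p = 0.0383) against PDGF-p53-RBPJ and -0.71 ± 0.18 (adjusted p = 0.0257) against PDGF-p53 tumours. These calls were lost without PDGF-p53-RBPJ array 1, 2 or 3 or p53-RBPJ array 1 or 3, and without PDGF-p53 array 2 or 3 or p53-RBPJ array 1 or 3. Against control the differences of 0.36, 0.35 and -0.35 were not called. Kcnd1, the remaining pore of the family, was dim. It was called lower than control in PDGF-p53-RBPJ tumours (-0.51, adjusted p = 0.0128). The same call was made for p53-RBPJ tumours (-0.52, adjusted p = 0.0101). Between p53-RBPJ and the other tumours the differences of -0.01 and -0.23 were not called.

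Kcnip3 measured 9.92, 10.02, 10.04 and 9.87 in normal brain and 10.53, 10.93 and 10.55 in arrays 2, 3 and 4 of the PDGF-p53 tumours, whose array 1 lay in the normal range. It measured 10.29, 10.45, 10.40 and 10.48 in PDGF-p53-RBPJ tumours, then 9.85, 9.86, 8.87 and 9.39 in p53-RBPJ tumours. Normal brain lay between the groups, with the tumours with PDGF above and the p53-RBPJ tumours below. Against PDGF-p53-RBPJ tumours the p53-RBPJ tumours were lower, with a difference of -0.91 ± 0.20 (adjusted p = 0.02), a call lost without PDGF-p53-RBPJ array 2 or 3 or p53-RBPJ array 3 or 4. Against PDGF-p53 tumours they were lower, with a difference of -1.01 ± 0.20 (adjusted p = 0.00765), a call kept whichever array was left out. That call was lost with only the 2 groups compared (adjusted p = 0.078) and with the sex term (adjusted p = 0.111). The rise of 0.54 in PDGF-p53 tumours over control (adjusted p = 0.0479) was lost in 12 of 16 such fits, those without any control array, any PDGF-p53-RBPJ array, PDGF-p53 array 2, 3 or 4, or p53-RBPJ array 4.

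**Figure D5:**
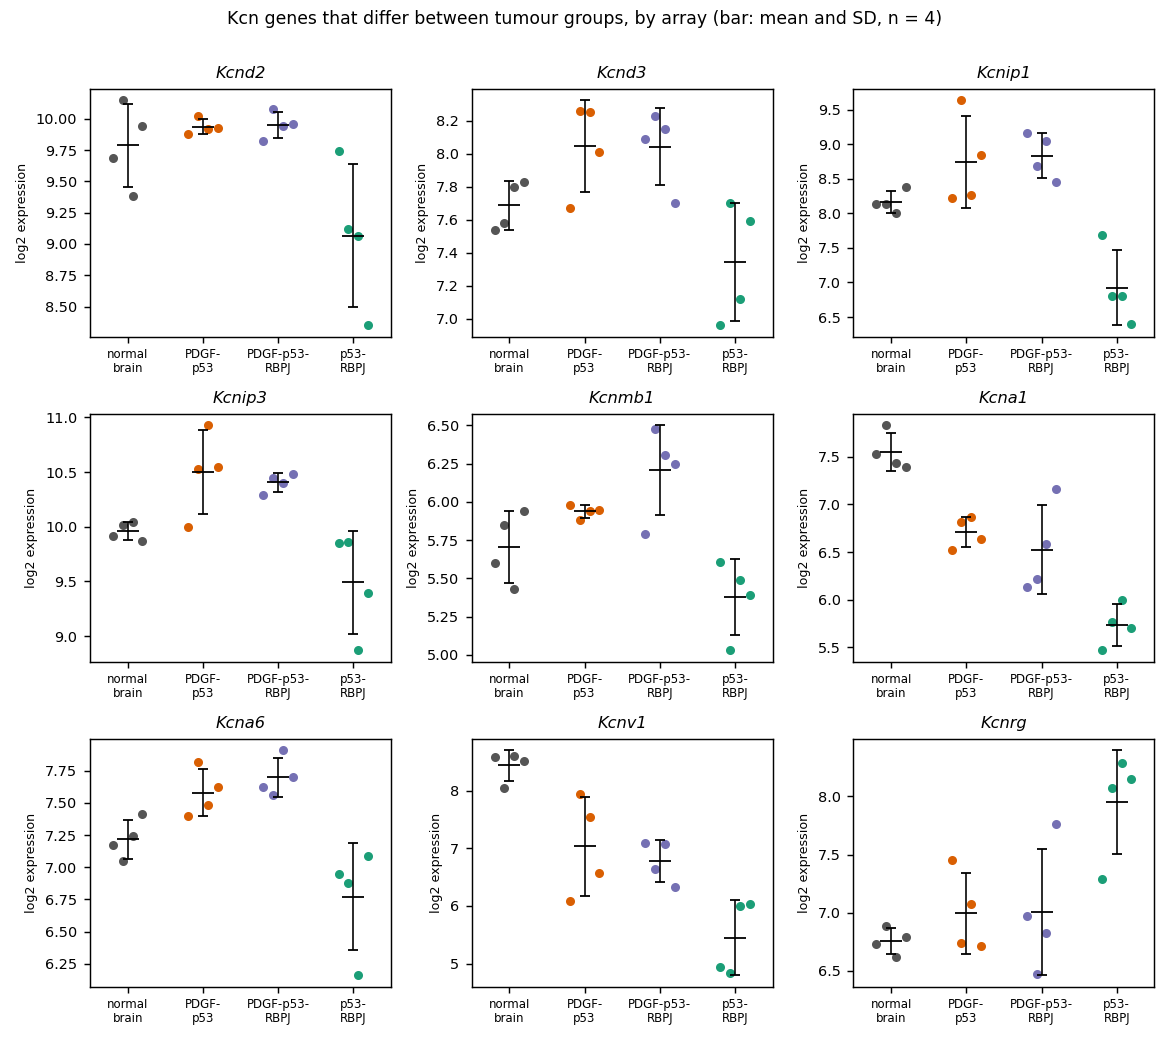
Log2 expression in each of the 16 arrays for 9 Kcn genes called between p53-RBPJ tumours and both tumour groups with PDGF, with a black bar for the mean and SD of 4 arrays. In all panels but that of Kcnrg the p53-RBPJ mean is the lowest, as for Kcnip1 at 6.93 against 8.16, 8.74 and 8.84.

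Kcnmb1, the BK beta subunit of smooth muscle, lies within Kcnip1 on the other strand. It was lower in p53-RBPJ tumours with a difference of -0.83 ± 0.16 against PDGF-p53-RBPJ (adjusted p = 0.00896) and with a difference of -0.56 ± 0.16 against PDGF-p53 tumours (adjusted p = 0.0443). The latter call was lost in 11 of 16 fits, those without control array 1 or 2, any PDGF-p53 array, PDGF-p53-RBPJ array 3 or 4, or p53-RBPJ array 2, 3 or 4. In PDGF-p53-RBPJ tumours it was higher than control by 0.50 (adjusted p = 0.0189), which was lost without control array 1 or 3 or PDGF-p53-RBPJ array 2 or 3. Whether its signal is separate from that of Kcnip1 was not tested.

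Kcna1 and Kcna6 are axonal Shaker channels. Kcna1 measured 7.53, 7.83, 7.43 and 7.39 in normal brain and 6.52, 6.81, 6.87 and 6.64 in PDGF-p53 tumours. It measured 6.13, 6.22, 6.58 and 7.16 in PDGF-p53-RBPJ tumours, then 5.47, 5.77, 6.0 and 5.70 in p53-RBPJ tumours, where all 4 arrays lay below every other array. It was lower there with a difference of -0.97 ± 0.19 against PDGF-p53 (adjusted p = 0.00675) and with a difference of -0.79 ± 0.19 against PDGF-p53-RBPJ tumours (adjusted p = 0.0293). The latter call was lost without PDGF-p53-RBPJ array 3 or 4 or p53-RBPJ array 1, 2 or 4.

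Kcna6 measured 7.05 to 7.41 in normal brain, 7.40 to 7.82 in PDGF-p53, 7.56 to 7.91 in PDGF-p53-RBPJ tumours, then 6.16 to 7.09 in p53-RBPJ tumours. Its levels in p53-RBPJ tumours were lower, with a difference of -0.93 ± 0.17 against PDGF-p53-RBPJ (adjusted p = 0.00756) and with a difference of -0.81 ± 0.17 against PDGF-p53 tumours (adjusted p = 0.0108), and both calls were kept whichever array was left out. With the sex term both were lost (adjusted p = 0.0618 and 0.0653). The call against PDGF-p53 tumours was also lost with only the 2 groups compared (adjusted p = 0.0757). Against control Kcna6 was called higher in PDGF-p53-RBPJ tumours by 0.48 (adjusted p = 0.0372) and lower in p53-RBPJ tumours with a difference of -0.45 (adjusted p = 0.0458). The former was lost without control array 1, 2 or 3 or PDGF-p53-RBPJ array 1, 3 or 4. The latter was lost in 9 of 16 fits, those without control array 1, 3 or 4, PDGF-p53 array 3 or 4, PDGF-p53-RBPJ array 1 or 4, or p53-RBPJ array 2 or 3.

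Kcnv1, the silent subunit named above, measured 8.59, 8.04, 8.60 and 8.51 in normal brain and 6.08, 7.94, 7.54 and 6.57 in PDGF-p53 tumours. It measured 7.09, 6.64, 7.07 and 6.33 in PDGF-p53-RBPJ tumours, then 4.94, 4.83, 5.99 and 6.04 in p53-RBPJ tumours. The groups formed a descending order in which the neighbouring PDGF groups overlapped and p53-RBPJ arrays overlapped with none. It was lower in p53-RBPJ tumours with a difference of -1.58 ± 0.35 against PDGF-p53 (adjusted p = 0.015), lost without PDGF-p53 array 2, and with a difference of -1.33 ± 0.35 against PDGF-p53-RBPJ tumours (adjusted p = 0.0486). The latter was lost in 10 of 16 fits, those without any control array, PDGF-p53 array 4, PDGF-p53-RBPJ array 1, 2 or 3, or p53-RBPJ array 1 or 2. Kcnab3 was lower, with a difference of -0.44 against PDGF-p53 tumours (adjusted p = 0.0236), lost without PDGF-p53 array 2 or 4 or p53-RBPJ array 2 or 3.

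The members higher in p53-RBPJ tumours were Kcnrg and Kcnj13. Kcnrg codes for a soluble protein that resembles the assembly domain of voltage-gated channels and can keep them from forming. Kcnrg measured 6.73, 6.88, 6.62 and 6.79 in normal brain and 7.45, 6.74, 7.07 and 6.71 in PDGF-p53 tumours. It measured 6.97, 6.47, 6.82 and 7.76 in PDGF-p53-RBPJ tumours, then 7.29, 8.07, 8.29 and 8.15 in p53-RBPJ tumours. Arrays 2, 3 and 4 of the p53-RBPJ tumours lay above all others, and array 1 overlapped with the other tumours. The rise was 1.20 ± 0.25 over control (adjusted p = 0.000818), 0.94 ± 0.25 over PDGF-p53-RBPJ (adjusted p = 0.0461) and 0.96 ± 0.25 over PDGF-p53 tumours (adjusted p = 0.0297). The call over control was kept whichever array was left out. That over PDGF-p53-RBPJ tumours was lost in 10 of 16 fits, those without any control array, PDGF-p53-RBPJ array 1, 2 or 3, or p53-RBPJ array 2, 3 or 4. That over PDGF-p53 tumours was lost without PDGF-p53 array 2, 3 or 4 or p53-RBPJ array 2, 3 or 4. Kcnrg overlaps Trim13 and Dleu2, which were not called in any comparison and differed from control in these tumours by -0.39 and 0.35.

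Kcnj13 was higher than in PDGF-p53 tumours by 0.56 ± 0.15 (adjusted p = 0.0336), a call lost without PDGF-p53 array 3 or 4 or p53-RBPJ array 1, 2 or 4. The difference of 0.34 from PDGF-p53-RBPJ tumours was not called (adjusted p = 0.254).

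The counts between tumour groups moved with single arrays and with other settings. The 8 members lower against PDGF-p53-RBPJ tumours became 5 without PDGF-p53-RBPJ array 1 or p53-RBPJ array 2 or 3, 4 without PDGF-p53-RBPJ array 2, and 3 without PDGF-p53-RBPJ array 3. The 10 lower against PDGF-p53 tumours became 4 without PDGF-p53 array 2 and 5 without p53-RBPJ array 3. The single higher member, Kcnrg, was lost in the 10 fits named above. The count of higher members was 0 in 9 of them, and without p53-RBPJ array 2 it was 1 because Kcnmb4os1 was called (0.59, adjusted p = 0.0401). The 2 higher against PDGF-p53 tumours became 1 without PDGF-p53 array 2 or p53-RBPJ array 1 or 3, and 0 without PDGF-p53 array 3 or 4 or p53-RBPJ array 2 or 4. With each array centred on housekeeping genes, 6 were lower and 3 higher than in PDGF-p53 tumours. All 4 p53-RBPJ arrays showed the female pattern of Xist and Kdm5d, which 2 normal arrays and 1 array of each other tumour group shared. With a term for that pattern, 1 member remained lower in each comparison, Kcnip1, and none was higher. Neuron markers had medians of -0.73 and -0.83 in the same comparisons, with 1 and 2 of 10 called lower, and astrocyte markers -0.34 and -0.63, with 1 and 3 of 8. Their part in the channel differences was not tested.

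Proteins that work with these channels were counted from separate lists. Of 18 partners, 14 were lower in each tumour group than in normal brain, with median differences of -0.92, -0.97 and -1.18, and 0, 1 and 0 were higher. Of all genes, 17.6%, 17.9% and 20.4% were lower and 13.6%, 15.7% and 16.4% higher. Lgi1, a secreted protein that slows inactivation of Kcna channels, was lower, with differences of -3.40, -3.64 and -3.93. Dlg2, a scaffold that clusters Kcna channels, was lower, with differences of -2.82, -3.06 and -4.18, and Cntnap2, which holds them beside the node of Ranvier, with differences of -2.38, -2.60 and -2.88. Dpp6 and Dpp10, the membrane partners of Kcnd pores, were lower, Dpp6 with differences of -0.91, -0.93 and -1.69 and Dpp10 with differences of -1.95, -2.16 and -2.12. Between tumours, 1 of 18 was called, Ank3, the anchor of Kcnq channels at the axon initial segment. It was lower in p53-RBPJ tumours, with differences of -0.97 and -1.07 against PDGF-p53-RBPJ and PDGF-p53 tumours, where 2.63% and 3.61% of all genes were lower. Of 3 pacemaker channels measured, Hcn2 and Hcn4 were lower in each tumour group, Hcn2 with differences of -0.94, -0.95 and -1.14 and Hcn4 with differences of -0.62, -0.58 and -0.57.

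Of 7 potassium pumps and cotransporters measured, 2, 2 and 4 were lower and 2, 1 and 2 higher than in normal brain. The shares of all genes were 17.6%, 17.9% and 20.4% lower and 13.6%, 15.7% and 16.4% higher, and 7 genes are too few to compare shares. Slc12a5, the chloride extruder of mature neurons, was lower, with differences of -2.08, -2.13 and -2.49, while Slc12a4, its widely expressed relative, was higher by 0.96, 0.98 and 0.70. The 3 beta subunits of the sodium-potassium pump on the list were lower in p53-RBPJ tumours than in both others. Of all genes, 2.63% were lower than in PDGF-p53-RBPJ and 3.61% than in PDGF-p53 tumours. Atp1b1 was lower, with differences of -1.15 and -1.35 against PDGF-p53-RBPJ and PDGF-p53 tumours, Atp1b2 with differences of -0.76 and -0.89, and Atp1b3 with differences of -0.58 and -0.76.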

How the data were processed

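Total RNA of 16 samples was labelled with biotin and hybridised to Affymetrix arrays, per the labels' protocols. The authors deposited log2 expression values for 35556 probe sets, for which the submitters' processing notes name RMA and oligo, with no versions given in the sources used here. RMA gives all arrays the same distribution, and a change in total RNA per cell cannot be seen. Arrays carry no read depth, and their number limits the precision.

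Of the probe sets, 21789 have 1 gene symbol, 1621 several and 12146 none. Those with 1 symbol were used, and 21768 of them matched the RefSeq table of GRCm38.p6. For each gene the probe set with the highest mean was taken, which 1001 genes needed, Kcnma1, Kcnh8 and Kcna2 among them.

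All arrays entered 1 linear model (lmFit and eBayes of limma 3.58.1, under R 4.3.3) with 12 residual and 5.33 prior degrees of freedom, two-sided, with Benjamini-Hochberg adjustment over 19936 genes. The script was tested on simulated data. Pandas 2.3.3 and matplotlib 3.10.9 made tables and figures.

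The members and lists were chosen with earlier results of these data known. Named genes are the 10 largest rises and falls per comparison with control among called genes without overlap of arrays, all called between tumours (at most 10 each way), the member with the largest difference from control in each subfamily, and a set list of channels of glia, neurons and vessels. Kcnc4, Kcnj9, Kcnn3, Kcnt1, Kcnip2, Kcnmb2, Kcnd1, Kcnk4 and others called in no comparison were named outside this rule, after their values were seen. Alternatives were the mean of probe sets, every probe set tested, a filter on dim genes, centring on 9 housekeeping genes, trend and robust settings, array weights, only the 2 groups compared, the replicate number as a block, a sex term from Xist and Kdm5d (chosen after seeing the data, since Ddx3y could not be used) and each array left out. The labels do not say whether the replicate numbers pair the samples.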

Additional observations from a re-analysis of the deposited data

Results flagged for a closer look

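Among 49 named genes in 4 groups, 10 of 196 groups held an array far from the others by Dixon's test, and chance gives about 1 in 20. In normal brain, array 2 was high for Kcna4 (8.28 against 7.34 to 7.49) and low for Kcnv1 (8.04 against 8.51 to 8.60). In PDGF-p53 tumours, array 3 was high for Kcna4 (6.56 against 5.51 to 5.69) and Kcnn2 (7.51 against 5.83 to 6.06).

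In PDGF-p53-RBPJ tumours, array 1 was low for Kcne1l (6.30 against 6.62 to 6.66), array 3 high for Kcng3 (5.26 against 4.89 to 4.94) and array 2 low for Kcnmb3 (6.21 against 6.73 to 6.80). In p53-RBPJ tumours, array 1 was high for Kcnj16 (8.67 against 7.38 to 7.53), and array 2 low for Kcnj3 (6.22 against 7.31 to 7.41) and Kcnmb4os1 (5.07 against 6.02 to 6.10).

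Tumour groups differed from each other, by limma's test of the difference, for 9 genes between p53-RBPJ and PDGF-p53-RBPJ tumours. The differences were -0.79 for Kcna1, -0.93 for Kcna6, -0.88 for Kcnd2, -0.70 for Kcnd3, -1.91 for Kcnip1, -0.91 for Kcnip3, -0.83 for Kcnmb1, 0.94 for Kcnrg and -1.33 for Kcnv1. For 12 genes p53-RBPJ and PDGF-p53 tumours differed. The differences were -0.97 for Kcna1, -0.81 for Kcna6, -0.44 for Kcnab3, -0.87 for Kcnd2, -0.71 for Kcnd3, -1.82 for Kcnip1, -1.01 for Kcnip3, 0.56 for Kcnj13, -0.95 for Kcnk2, -0.56 for Kcnmb1, 0.96 for Kcnrg and -1.58 for Kcnv1.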

How the results depend on the processing

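Of the 49 named genes, none had a called difference that reversed under any of 25 alternatives. The counts of lower members against control stayed within 1.5 times of 40, 43 and 44; leaving out each array gave 36 to 41, 40 to 45 and 42 to 46. With single arrays left out, counts of higher members, 5, 5 and 6, ranged over 3 to 6, 1 to 6 and 4 to 7. The PDGF-p53-RBPJ count was 8 with only the 2 groups compared and 7 with array weights. In p53-RBPJ tumours housekeeping centring gave 35 lower and 8 higher members. Between the tumour groups with PDGF the counts were 0 and 0 in all alternatives. For p53-RBPJ against PDGF-p53-RBPJ tumours, the 8 lower ranged over 3 to 9 and the 1 higher over 0 to 1 with single arrays left out. Without dim genes, and with array weights, 10 were lower. Housekeeping centring gave 4 lower, only the 2 groups 5 lower and 0 higher, the sex term 1 lower and 0 higher, and the replicate block 0 higher. For p53-RBPJ against PDGF-p53 tumours, the 10 lower ranged over 4 to 12 and the 2 higher over 0 to 2 with single arrays left out. Housekeeping centring gave 6 lower and 3 higher, and array weights 1 higher. Only the 2 groups gave 2 lower and 0 higher, and the sex term 1 lower and 0 higher. The cause was not tested.

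Housekeeping centring moved the median of all genes in p53-RBPJ tumours from -0.02 to 0.18 against control, from -0.01 to 0.10 against PDGF-p53-RBPJ and from 0.01 to 0.20 against PDGF-p53 tumours. Of 24 pairs of arrays with the same replicate number, 7 had deviations with r over 0.1. The median r was 0.033, beside -0.009 for pairs with other numbers, and 7 of 16 arrays were closest to their own number. Whether the numbers pair the samples cannot be told from these values. With the replicate block, the counts against control were 4 and 39, 5 and 44, and 5 and 43 (higher and lower). Probe sets near background limit what can be seen in the 33 dim members.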
